A study of Drosophila melanogaster with 8 samples.

Results

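Enzymes of glycolysis and lactate formation were followed in the Malpighian tubules, the excretory organ of the fly, of *Drosophila melanogaster*. The 10 genes were taken by CG number from 13942 genes in the files. No cutoff on level was used, but earlier results of these data were known when the 10 were chosen. They are Hex-A (CG3001), Hex-C (CG8094), Pfk (CG4001), Ald (CG6058), Gapdh1 (CG12055), Gapdh2 (CG8893), Pgk (CG3127), Eno (CG17654), PyK (CG7070) and Ldh (CG10160). RNA was sequenced from European males, European females, African males and African females, with 2 libraries per group and 8 in all. The European flies came from the Netherlands and the African flies from Zimbabwe. All were adults of 2 to 4 days by the sample labels (the study's methods give another age), kept at 22° with 14 h of light and 10 h of dark. None carried an engineered allele or received a treatment. Each library was a pool of tubules from several isofemale lines of its population, so that differences between lines within a population could not be seen.

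Glycolysis splits glucose into pyruvate in the cytosol and yields ATP and NADH. Hexokinase brings glucose into the pathway, phosphofructokinase is its main point of control, and pyruvate kinase makes pyruvate. Lactate dehydrogenase then converts pyruvate to lactate and returns NADH to NAD+, which keeps the pathway running. Tubule cells spend much ATP on ion pumping.

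Values are RPKM, reads per kilobase of a gene's longest transcript scaled to the reads mapped to the listed genes, so that genes can be set side by side per length. Libraries held 19528634 to 27099855 such reads. Log2 fold changes, males over females or Europe over Africa, come from limma on RPKM divided by a composition factor (TMM), and a gene was called at a Benjamini-Hochberg adjusted p under 0.05 over 12580 genes with at least 12 reads. All 10 enzymes passed this filter. The factors were 1.02 to 1.04 in European and 0.927 to 0.997 in African libraries, so that RPKM as deposited lie somewhat higher in Europe than the scaled values. With bulk RNA, fewer cells of a type and less RNA per cell cannot be told apart. Defining markers of principal cells (6 genes, summed 4129 to 6803 RPKM) and stellate cells (5 genes, 233 to 304 RPKM) were present in all 8 libraries. Among them Uro (log2 -0.81), Drip (-0.37) and TyrR (-0.38) were called lower in Europe (limma). For sex Uro was called lower (-0.38) and ClC-a higher in males (0.29, limma). The rest were not called, and some ran the other way. Of the 6 principal cell markers, 1 was positive for population (CapaR, 0.14) and 2 for sex (ZnT35C, 0.16, and NaPi-T, 0.02). Of the 5 stellate cell markers, 0 were positive for population and 4 for sex. The part of either cell type in the enzyme differences was not tested.

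The enzymes spanned a wide range of levels. Gapdh2 averaged 564 ± 54.4 RPKM (SD, n = 8), Hex-C 553 ± 66.1, Gapdh1 483 ± 19.2 and Ald 481 ± 15.2. Neighbors in this order overlapped in their ranges, and Gapdh2 lay above Hex-C in 4 of 8 libraries. Eno averaged 321 ± 20.0 RPKM (SD, n = 8) and PyK 288 ± 21.2. These ranges also overlapped, although Eno was above PyK in 8 of 8 libraries. Pgk followed at 151 ± 4.92 RPKM, Hex-A at 100.02 ± 24.3, Pfk at 45.7 ± 1.87 and Ldh at 11.3 ± 11.1 RPKM (SD, n = 8), each range apart from the next. The mean of Gapdh2 was 49.8 times that of Ldh. The 10 genes together held 0.568% to 0.608% of the reads, and their summed RPKM differed little between libraries (2869 to 3081).

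**Figure D1:**
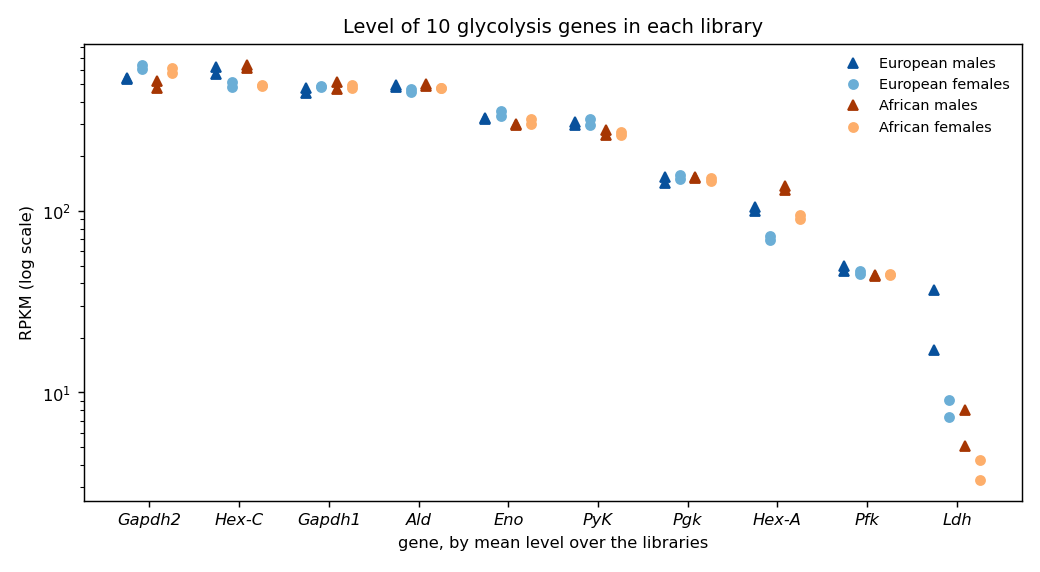
RPKM (log axis) of the 10 enzymes in each of 8 libraries, 2 points per group, ordered by mean level. Most genes lie in a narrow band across groups, whereas Ldh runs between 3.29 and 36.6 RPKM.

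Between the sexes, 4 of 10 enzymes were called. Both hexokinases and Ldh were higher in males (3 of 10, against 7.62% of all genes tested), and Gapdh2 was lower in males (1 of 10, against 4.12%). The other 6 enzymes were not called. The median log2 fold change over the 10 was 0.03, and over all genes tested 0.01.

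Hex-A encodes the hexokinase expressed broadly in fly tissues and lies on the X chromosome. Its level was 105 and 99.9 RPKM in European males, 69.4 and 73.2 in European females, 130.4 and 137 in African males, and 90.2 and 94.9 in African females. All 4 male libraries lay above all 4 female libraries, and within each sex both European libraries lay below both African ones. Males averaged 118 ± 18.6 RPKM and females 81.9 ± 12.5 (SD, n = 4 each), a log2 fold change of 0.55 (SE 0.05, adjusted p = 0.00197, limma). Europe averaged 86.8 ± 18.1 RPKM and Africa 113 ± 24.1 (SD, n = 4 each), a log2 fold change of -0.47 (SE 0.05, adjusted p = 0.00163, limma). Both calls held in all 14 alternatives run.

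Hex-C, the second hexokinase, had 569 and 625 RPKM in European males, 486 and 513 in European females, 613 and 640.2 in African males, and 487 and 494 in African females. The male libraries again lay above all female libraries, with no such separation by population. Males averaged 612 ± 30.8 RPKM and females 495 ± 12.8 (SD, n = 4 each), and the log2 fold change was 0.33 (SE 0.06, adjusted p = 0.0162, limma). The call was lost without European females replicate 1 (adjusted p = 0.0511, limma) and without European males replicate 2 (0.0558). The population difference was not called (log2 -0.11, SE 0.06, adjusted p = 0.293, limma).

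Set against each other, the hexokinases kept a stable order, with Hex-C in excess everywhere. Hex-A made up 15.5% and 13.8% of their summed RPKM in European males, 12.5% in both European female libraries, 17.6% and 17.7% in African males, and 15.6% and 16.1% in African females. The share was thus lowest in European females and highest in African males. These shares are descriptions and were not tested, and RPKM counts a gene over its longest transcript, so that a gene read mainly as shorter isoforms is understated.

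Gapdh1 and Gapdh2 encode closely related copies of glyceraldehyde-3-phosphate dehydrogenase, the step that makes NADH. Gapdh2, on the X chromosome, had 541 and 534 RPKM in European males, 609 and 639 in European females, 523 and 478 in African males, and 575 and 612 in African females. Every male library lay below every female library. Males averaged 519 ± 28.1 RPKM and females 609 ± 26.3 (SD, n = 4 each), a log2 fold change of -0.21 (SE 0.04, adjusted p = 0.0233, limma). The call was lost in 5 of 8 fits that left out a library, with adjusted p between 0.0297 and 0.0771 over the 8 (limma): without African females replicate 2, either European female library or either European male library. The population difference was not called (log2 0.00, SE 0.04, adjusted p = 0.984, limma).

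Gapdh1 showed no such pattern. Its level was 449.6 and 478 RPKM in European males, 484 and 491 in European females, 515 and 470.4 in African males, and 477 and 495 in African females. Within Europe both male libraries lay below both female libraries, whereas within Africa the sexes overlapped, and neither the sex difference (log2 -0.00, SE 0.05, adjusted p = 0.98, limma) nor the population difference (log2 -0.13, SE 0.05, adjusted p = 0.130, limma) was called. Gapdh2 accordingly made up 54.6% and 52.7% of the pair's RPKM in European males, 55.7% and 56.6% in European females, 50.4% in both African male libraries, and 54.6% and 55.3% in African females. How reads common to both copies were divided in mapping was not tested.

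**Figure D2:**
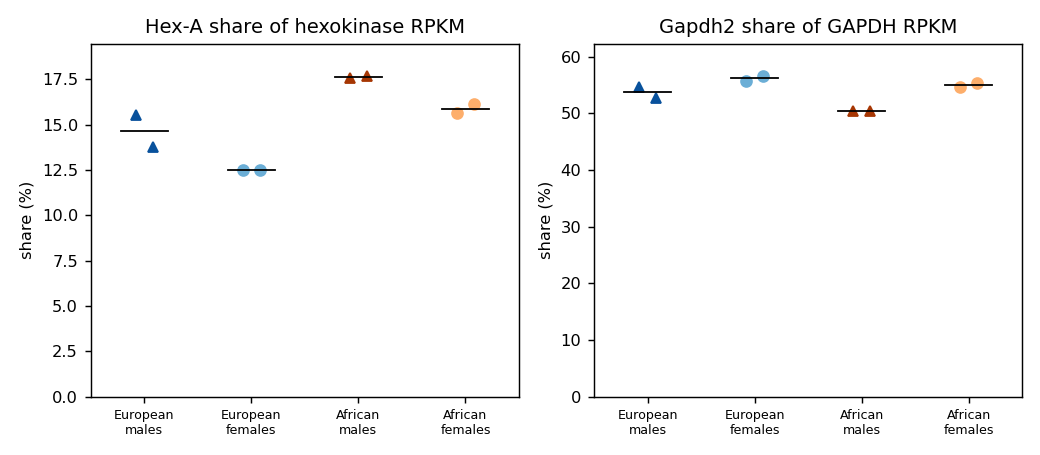
Share (%) of Hex-A in hexokinase RPKM (left) and of Gapdh2 in GAPDH RPKM (right), by group; points are libraries and lines the mean of 2. Hex-A made up 12.5% to 17.7% of the first pair and Gapdh2 50.4% to 56.6% of the second.

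Ldh had the lowest level and the widest spread. It had 36.6 and 17.1 RPKM in European males, 7.33 and 9.04 in European females, 8.02 and 5.07 in African males, and 4.22 and 3.29 in African females. Both European male libraries stood above the other 6, and they differed from each other by 2.12-fold on the scaled values. African males overlapped European females, while males lay above females within each population and Europe above Africa within each sex. Behind these values were 142 to 1265 reads per library, a counting error of at most 8.39%, well under the gap between the European male libraries.

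Males averaged 16.7 ± 14.2 RPKM of Ldh and females 5.97 ± 2.68 (SD, n = 4 each), a log2 fold change of 1.21 (SE 0.29, adjusted p = 0.0378, limma). This call was lost in 8 of 14 alternatives: with a pseudocount of 1, with no filter on reads, and without African females replicate 1 or 2, African males replicate 1, European females replicate 1 or 2, or European males replicate 2 (adjusted p 0.0269 to 0.105 over the 14, limma). Without European males replicate 1, the highest library, it was kept at log2 0.91. For population, Europe averaged 17.5 ± 13.4 RPKM and Africa 5.15 ± 2.05 (SD, n = 4 each), a log2 fold change of 1.45 (SE 0.29, adjusted p = 0.0197, limma). That call was lost without African females replicate 2 (adjusted p = 0.0503, limma) and without European females replicate 2 (0.0598).

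**Figure D3:**
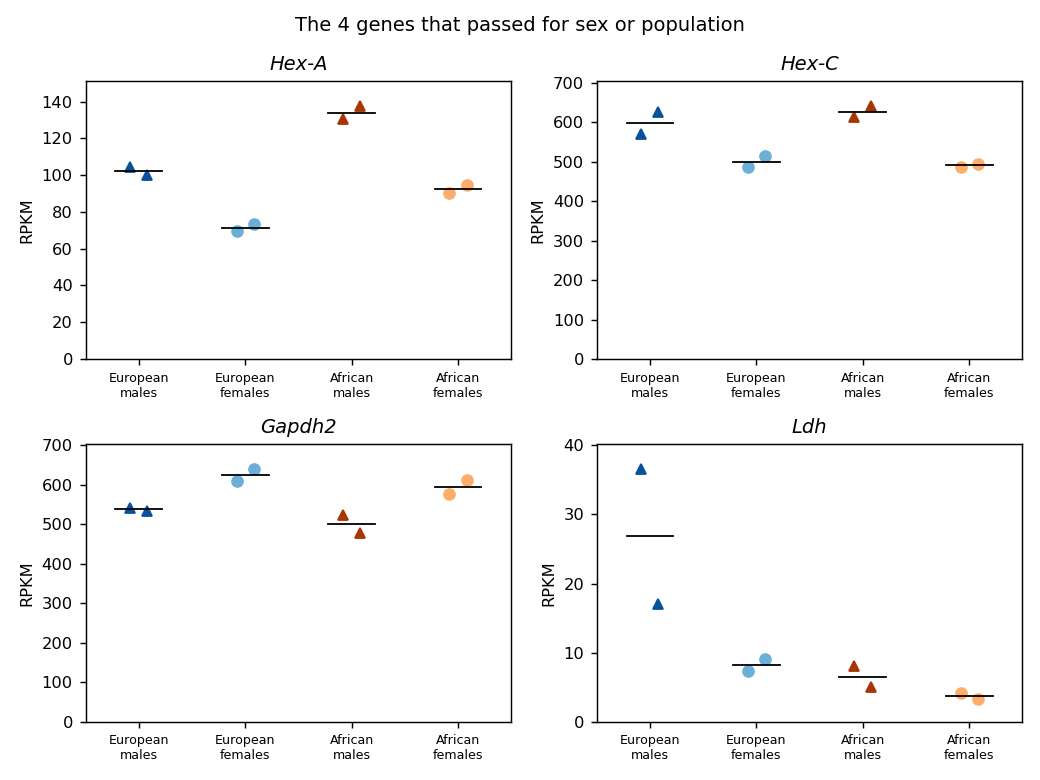
RPKM of Hex-A, Hex-C, Gapdh2 and Ldh by group, on axes that start at 0; points are libraries and lines the mean of 2. Hex-A, Hex-C and Gapdh2 separate males from females without overlap, and Ldh is highest in the 2 European male libraries (36.6 and 17.1 RPKM).

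Between the populations, 2 of 10 enzymes were called. Ldh was higher in Europe (1 of 10, against 6.53% of all genes tested) and Hex-A was lower in Europe (1 of 10, against 5.39%). The median log2 fold change over the 10 was -0.04, and over all genes tested 0.01. Without the composition factor PyK (log2 0.18, adjusted p = 0.0218, limma) and Eno (log2 0.13, adjusted p = 0.0467) were called higher in Europe too. That setting moved the split of all calls to 1523 higher and 447 lower in Europe, against 821 and 678 with the factor, and the median of all genes to 0.08.

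PyK, which makes pyruvate, had 296 and 309 RPKM in European males, 299 and 319.6 in European females, 280.3 and 263 in African males, and 264 and 272 in African females. Eno, enolase, had 325 and 323 RPKM in European males, 336 and 357 in European females, 301 and 297 in African males, and 304 and 323 in African females. For both genes all 4 European libraries lay above all 4 African ones as deposited. With the factor the population difference was not called for PyK (log2 0.10, SE 0.04, adjusted p = 0.196, limma) or Eno (log2 0.04, SE 0.04, adjusted p = 0.565).

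The remaining enzymes varied little in RPKM as deposited. Ald, aldolase, ranged between 453 and 502.0 RPKM, Pgk, phosphoglycerate kinase, between 143 and 159, and Pfk, phosphofructokinase, between 43.9 and 49.5 RPKM. On this scale the highest library exceeded the lowest by 1.11-fold for Ald and Pgk and by 1.13-fold for Pfk. For Hex-A it did so by 1.98-fold and for Ldh by 11.1-fold. Divided by the factor, Ald ran between 436 and 541, Pgk between 138 and 166 and Pfk between 43.4 and 48.5. As deposited, Ald was slightly higher in every male library (males 492 ± 9.12 and females 470 ± 11.5 RPKM, SD, n = 4 each). The difference was not called (log2 0.09, SE 0.04, adjusted p = 0.222, limma). For population the log2 difference was -0.12 for Ald (SE 0.04, adjusted p = 0.120, limma), -0.08 for Pgk (SE 0.05, adjusted p = 0.352) and -0.00 for Pfk (SE 0.04, adjusted p = 0.954). Neither Pfk (log2 0.04, SE 0.04, adjusted p = 0.561, limma), Pgk (log2 0.01, SE 0.05, adjusted p = 0.912), Eno (log2 -0.06, SE 0.04, adjusted p = 0.466) nor PyK (log2 0.02, SE 0.04, adjusted p = 0.816) was called for sex.

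**Figure D4:**
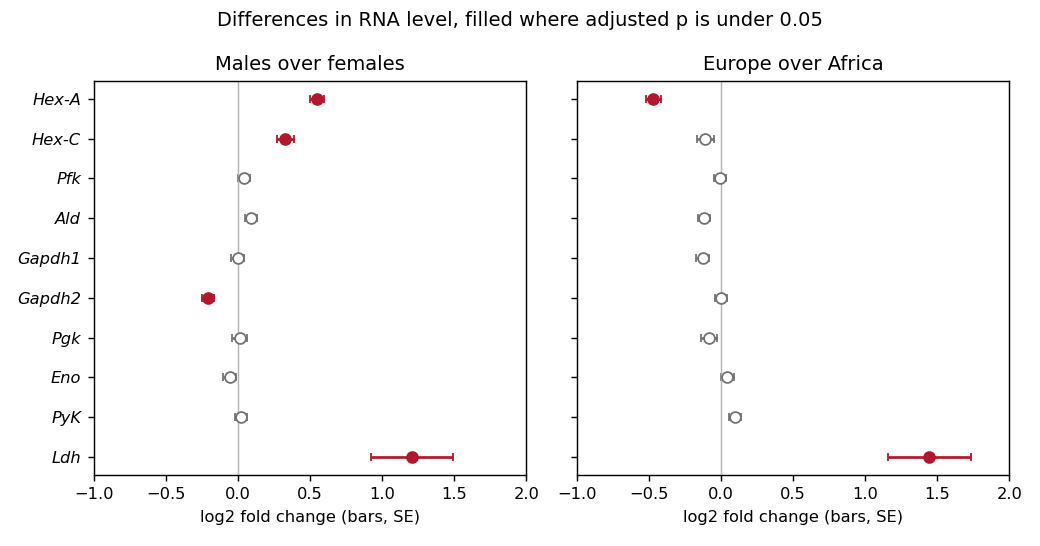
Log2 fold change (points) with its SE (bars) of the 10 enzymes for males over females (left) and Europe over Africa (right), in pathway order; filled points were called. For sex 4 genes are filled and for population 2, with Hex-A at 0.55 and -0.47 and Ldh at 1.21 and 1.45.

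In RPKM as deposited, and in each population taken alone, both male libraries lay above both female libraries for Hex-A, Hex-C, Ald and Ldh, and below them for Gapdh2 and Eno. These 6 of 10 stand against 25.7% of all genes tested, in one direction or the other. For population, Ldh, PyK and Eno were higher and Hex-A lower in Europe in each sex without overlap (4 of 10, against 28.6% of all genes tested in one direction or the other). On values divided by the factor, a scale chosen for this count after the data were seen, Eno overlapped in both comparisons. For sex 5 of 10 then lay apart (against 24.6% of all genes tested). For population Ldh and PyK were higher and Hex-A, Ald and Gapdh1 lower in Europe (5 of 10, against 25.7%). Of all these, only Hex-A, Hex-C, Gapdh2 and Ldh were called by limma in the comparison concerned.

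No enzyme was called for the interaction of sex and population (0 of 10 by limma, against 0.0556% of all genes tested, and 0 of 10 by voom). At an unadjusted p under 0.05 there were 0 of 10, against 7.6% of all genes tested (limma). The sex difference of Ldh was 0.81 larger in Europe on the log2 scale (SE 0.52, adjusted p = 0.826, limma), and that of Hex-A differed by -0.05 (SE 0.10, adjusted p = 0.968). Within Europe only Hex-A was called for sex (1 of 10, against 7.03% of all genes tested), with a log2 fold change of 0.53 (SE 0.05, adjusted p = 0.0131, limma). With no filter on reads it was not called (adjusted p = 0.0524, limma). When 1 of the 4 European libraries was left out, 0 of 12580 genes were called in each of the 4 fits, and Hex-A kept a log2 fold change of 0.48 to 0.57. Within Africa none was called (0 of 10, against 0.477%), and Hex-A had 0.57 (SE 0.09, adjusted p = 0.139, limma). At an unadjusted p under 0.05 there were 4 of 10 in Europe (against 22.6% of all genes tested) and 3 of 10 in Africa (against 14.3%).

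For Ldh the sex difference was 1.61 in Europe (SE 0.37, adjusted p = 0.0804, limma) and 0.80 in Africa (SE 0.25, adjusted p = 0.2996). Hex-C gave 0.26 in Europe (SE 0.08, adjusted p = 0.131, limma) and 0.39 in Africa (SE 0.09, adjusted p = 0.215). Gapdh2 gave -0.21 in both (SE 0.06 in Europe and 0.08 in Africa, adjusted p = 0.110 and 0.378, limma). Each direction was thus the same in both populations.

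Population was also compared within each sex, on 4 libraries. In males none was called (0 of 10, against 1.11% of all genes tested), with Hex-A at -0.49 (SE 0.08, adjusted p = 0.0956, limma) and Ldh at 1.85 (SE 0.43, adjusted p = 0.159). With the replicate number as a block Ldh was called in males (adjusted p = 0.0407, limma), and the calls over all genes were 208, against 140 without it. In females none was called (0 of 10, against 1.65%), with Hex-A at -0.45 (SE 0.06, adjusted p = 0.0731, limma) and Ldh at 1.04 (SE 0.18, adjusted p = 0.0935). The block moved the calls in females over all genes to 47, against 208 without it. At an unadjusted p under 0.05 there were 3 of 10 in males (against 18.4% of all genes tested) and 2 of 10 in females (against 18.5%).

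The pathway holds further genes, 14 of which were listed. Pgi, which forms fructose 6-phosphate, Tpi, which interconverts the triose phosphates, and Pglym78, phosphoglycerate mutase, complete the pathway and lay at 250.1 to 291, 301 to 363 and 195 to 232 RPKM. None of these was called for sex (log2 0.11, -0.08 and -0.10) or population (log2 -0.12, -0.03 and -0.05). With them, the summed RPKM of 13 genes was 3650 to 3945.

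The other 11 were further copies of enzymes above, each at 2.47 RPKM or lower in every library, and 10 passed the filter on reads. Of these, 7 were called higher in males (against 7.62% of all genes tested) and 0 lower (against 4.12%), and 0 for population (limma). Genes this low pass the filter mainly through the libraries where they are high, so that their number supports nothing about the pathway. Pglym87, a second phosphoglycerate mutase, had 2.47 and 2.06 RPKM in European males, 0.047 and 0.068 in European females, 1.21 and 0.342 in African males, and 0.094 and 0 in African females. Hex-t2, a hexokinase known from testis, had 1.33 and 1.31 RPKM in European males, 0.065 and 0.024 in European females, 0.811 and 0.263 in African males, and 0 and 0.048 in African females. Males held 145 of the 150 reads of Pglym87 and 129 of the 134 reads of Hex-t2, and no female library had more than 2 reads of either, so that both passed the filter through the male libraries and no p is given. The others called were CG2964, CG9961, CG12229, CG7069 and CG5432 (limma), and each of these 5 calls was lost in 6 or 7 of the 8 fits that left out a library. CG2964 and CG5432 were lost with the replicate block too. No female library had more than 2 reads of CG2964, so that it also passed the filter through the male libraries.

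Testis markers are set beside these copies and Ldh. All 6 were called higher in males (limma, against 7.62% of all genes tested). Like the copies, these markers passed the filter mainly through the male libraries, so that their calls support nothing further. Their summed level was 46.1 to 67.6 RPKM in European males and 0.426 to 0.694 in European females. In African males it was 6.88 to 19.9 RPKM and in African females 0.5004 to 0.756. The 11 copies summed to 9.98 to 10.96, 1.42 to 1.56, 2.46 to 5.02 and 1.34 to 1.51 RPKM in the same groups. Ldh was also highest in European males. Within that group it was higher in replicate 1 and all 6 testis markers in replicate 2, whereas in African males Ldh and all 6 testis markers were higher in replicate 1. The replicate with more Ldh had the higher testis sum in 2 of 4 groups. In the female groups this order rests on few reads, at most 7 of any testis marker in a library. Muscle markers (9 genes) summed to 173 to 239 RPKM in European males, 229 to 251 in European females, 120.3 to 208 in African males and 151 to 183 in African females. All 9 were higher in replicate 1 of both European and African males, as Ldh was, and the replicate with more Ldh had the higher muscle sum in 3 of 4 groups. Fat body markers (7 genes) summed to 12.8 to 17.5 RPKM in European males, 42.9 to 69.9 in European females, 12.6 to 29.2 in African males and 37.2 to 48.5 in African females. Among them fit and Lsp2 were called lower in males and Obp44a and Obp99b higher (limma). The replicate with more Ldh had the higher fat body sum in 3 of 4 groups, the same groups as for muscle. Muscle and fat body sums were both higher in replicate 1 of every group. Both counts thus only repeat the groups in which Ldh was higher in replicate 1. The part of these tissues in the level of Ldh was not tested.

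**Figure D5:**
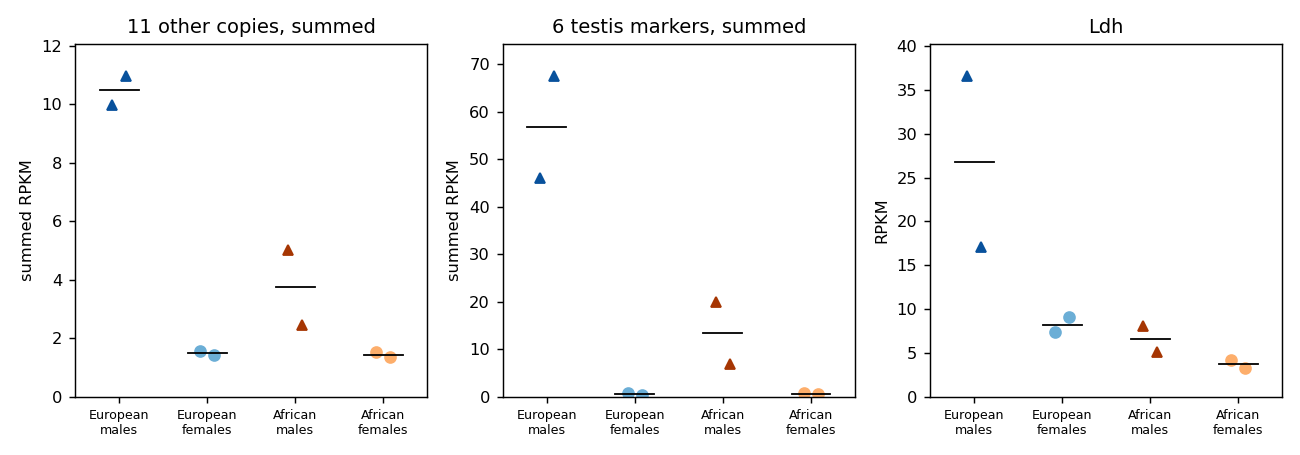
Summed RPKM of 11 further copies of glycolysis enzymes (left) and 6 testis markers (middle), and RPKM of Ldh (right), by group; points are libraries and lines the mean of 2. All 3 are highest in European males, while Ldh alone is higher in replicate 1 of that group (36.6 RPKM) than in replicate 2 (17.1 RPKM).

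Around glycolysis 14 genes were listed that supply it, draw on it or regulate it. For sex 0 of 14 were called (limma), against 7.62% of all genes tested higher and 4.12% lower in males. At an unadjusted p under 0.05 there were 4 of 14 (against 27.2% of all genes tested, limma). For population 1 of 14 was called higher (against 6.53%) and 2 of 14 lower in Europe (against 5.39%). Gpdh, the cytosolic glycerol-3-phosphate dehydrogenase that also returns NADH to NAD+, had 814 and 854 RPKM in European males, 714 and 774 in European females, 580.5 and 647 in African males, and 586 and 613 in African females. It was higher in Europe (log2 0.29, SE 0.07, adjusted p = 0.0360, limma), a call lost in 7 of 14 alternatives. Treh, trehalase, which frees glucose from the blood sugar trehalose, was lower in Europe (log2 -0.32, SE 0.04, adjusted p = 0.00374, limma), as was sima, the fly hypoxia-inducible factor alpha subunit (log2 -0.23, SE 0.04, adjusted p = 0.0126).

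As both Ldh and Gpdh regenerate NAD+, their levels were set side by side. Ldh made up 4.30% and 1.96% of their summed RPKM in European males, 1.02% and 1.15% in European females, 1.36% and 0.777% in African males, and 0.715% and 0.535% in African females. Gpdh was thus in large excess in every library.

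Across the 8 libraries, the genes outside the 10 whose log2 level ran closest to the mean log2 level of the 10 were CG1172 (Pearson r = 0.985), Rgl (0.975), CG14694 (0.974), shv (0.972) and CG43867 (0.969), among 9775 genes with at least 100 reads. The mean itself ran closest to Ldh (r = 0.81) and against Gapdh2 (r = -0.77). These values describe 8 libraries that share 4 groups and carry no test.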

How the data were processed

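Poly(A) RNA of Malpighian tubules was sequenced as 50-base single reads. The authors mapped reads with NextGenMap to the FlyBase transcriptome, assigned a read on any isoform to its gene, and deposited RPKM per gene and library, over the longest transcript scaled to the reads mapped to the 13942 genes, with no composition factor. Every value was a whole number of reads (100%, tolerance 0.01), with 19528634 to 27099855 reads per library. RPKM were divided by TMM factors (trims 30% and 5%), and log2 of the quotient plus 0.1 entered limma 3.58.1 (R 4.3.3, intensity trend) in a model of sex and population, in one with their interaction, and in one-factor models within population or sex. Genes with at least 12 reads over 8 libraries were tested (12580), with Benjamini-Hochberg adjustment at 5%. In the one-factor models some genes were at 0 in all 4 libraries and had no variance, which limma offsets.

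The fit was run on simulated data with known sex differences, the same spread for all genes and no population difference. No shift shared by same-numbered replicates was simulated either. As the real libraries differ in these respects, that run says nothing about error rates here. Alternatives were no factor, a pseudocount of 1, no filter, at least 100 reads, voom, a replicate block, a 4-group contrast and leaving out each library. Differences between replicates correlated between groups over 9785 genes (0.137 to 0.468, 6 pairs of groups, all over 0.1), which met the criterion set for pairing. Neither labels nor methods name a shared batch, the main models hold no block, and blocked values are given where they change a call. P-values measure the spread between these libraries, and counting errors cover counting alone. The members and gene lists were chosen with earlier results of these data known. The genes named are the 10 enzymes, listed genes that were called, complete the pathway or copy a member, and the 5 of most similar level. Coordinates and sequences are not used here, because the available reference follows a different build.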

Additional observations from a re-analysis of the deposited data

Results flagged for a closer look

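In 40 groups of 4 libraries (10 enzymes, each by sex and by population), 1 library stood apart from its group in RPKM as deposited. Chance gives about 1 in 20 for groups of 4 libraries of the same kind. These groups mix populations or sexes and share libraries, so that this rate does not hold for them. Among females, Ald had 453 RPKM in European females replicate 1 and 473 to 477 RPKM in the other 3 libraries. The gap was 0.83 of the range of the group, just over the limit for a group of 4. On values divided by the factor, Ald had 436 and 460 in European females and 477 and 491 in African females. None of these 4 Ald libraries stood so far apart on that scale. Among males, PyK divided by the factor had 303 in European males replicate 2, and 287, 284 and 284 in the rest.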

How the results depend on the processing

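For sex, 4 enzymes were called, and leaving out a library gave 1 to 4, where all calls were 648 to 1351, against 1476. For population, 2 were called, and without the composition factor 4, where all calls were 1970, against 1499. Leaving out a library gave 1 to 2 for population, where all calls were 816 to 1408. For sex within Europe 1 was called, 0 with no filter, and 0 to 0 without a library, where no gene of all tested was called. For sex within Africa 0 were called and 1 in the 4-group contrast, where all calls were 435, against 60. For population in males 0 were called, 2 in the 4-group contrast and 1 with the replicate block, where all calls were 654 and 208, against 140. For population in females 0 were called, 1 with at least 100 reads, 2 with voom and 1 in the 4-group contrast, where all calls were 362, 485 and 487, against 208. The interaction gave 0 in every alternative. The block changed no other call of the 10 enzymes. Directions turned only for differences that were not called: without the factor for sex in Pgk (-0.011) and PyK (-0.0038) and for population in Pfk (0.081) and Pgk (0.0021). Leaving out a library gave, for sex, -0.032 to 0.031 in Gapdh1, -0.021 to 0.051 in Pgk and -0.0035 to 0.0505 in PyK, for population, -0.032 to 0.015 in Pfk and -0.024 to 0.027 in Gapdh2, and for the interaction, -0.13 to 0.038 in Hex-A. Leaving out a library within a population or sex leaves 1 library on one side, which is assumed to vary like the other. The cause of these changes was not tested.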
